A study of Mus musculus with 73 samples.

Results

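The genes described here are 36 genes of mitosis and the centromere, taken by symbol from the count table of a series of 73 mouse mammary tumours. They were grouped by role into cyclins with Cdk1 (4 genes), mitotic kinases with the chromosomal passenger complex (6), the spindle checkpoint with Cdc20 (5), spindle motors and microtubule proteins (7), kinetochore and centromere proteins (8), proteins of chromosome structure, separation and cytokinesis (5), and the transcription factor Foxm1. The count table, with 39438 rows, held 35 of the 36. Kif11, a spindle motor, was present only in the deposited log2 table and is given on that scale. All 35 passed the filter on low counts in every fit.

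The series set mammary tumours with the Brca1 variant p.L1363P against tumours of other mouse models, by RNA sequencing of polyadenylated RNA. Tumours of genotype KB1(L1363P)P comprised 9 sarcomatoid tumours (0% epithelial), 9 carcinosarcomas (2 to 98% epithelial) and 3 adenocarcinomas, here called L1363P tumours. Genotype KB1P comprised 21 adenocarcinomas, 10 of them titled KB1PM, and genotype KB2P comprised 23 adenocarcinomas. Genotype KP comprised 3 carcinosarcomas (80 to 90% epithelial) and 5 adenocarcinomas, and every adenocarcinoma was labelled 100% epithelial. As background, in established mouse models Cre under a keratin 14 promoter deletes conditional alleles in epithelium. These are Trp53 alone (KP), Brca1 and Trp53 (KB1P) or Brca2 and Trp53 (KB2P), so loss of p53 is shared by those 3 models. The label KB1(L1363P)P carries the letters K and P as well, and the labels do not spell out its alleles. No strain, age or further allele is labelled, nor whether every tumour grew in a separate mouse (54.1 and 54.2 carry one number), and the p-values describe the scatter among the samples at hand.

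All 29 L1363P and KP libraries belonged to run 5625, and the KB1P and KB2P libraries to 8 other runs, as read from the first field of the library descriptions. Genotype and run therefore cannot be told apart where L1363P or KP tumours are set against KB1P or KB2P tumours. KB1P and KB2P tumours shared no run either, so the same holds between them. Libraries held 13103749 to 17550129 counts in run 5625 and 7325180 to 31615237 counts in the other runs. Brca1 transcripts had a median of 31.5 CPM in KB1P-titled and 24.4 CPM in KB1PM-titled tumours, against 40.9 CPM in KP adenocarcinomas, with overlapping ranges. Such values do not test the label of a deleted allele where exons outside the deletion are still transcribed. The labels were set against markers: 12 epithelial markers summed to a median of 3738 CPM in L1363P, 2528 CPM in KB1P-titled, 3192 CPM in KB1PM-titled, 2243 CPM in KB2P and 3134 CPM in KP adenocarcinomas, against 192 CPM in sarcomatoid tumours. Adenocarcinomas KB2P 30, KP 90.01A and KB1PM 8, labelled 100% epithelial, had only 55.8, 257 and 259.8 CPM, and L1363P carcinosarcoma 6, labelled 95%, had 434 CPM. Adipocyte markers summed to 23.1, 185 and 3933 CPM in the 3 L1363P adenocarcinomas, and to at most 466 CPM in any tumour of the other groups. Skeletal muscle markers summed to 1786 CPM in KP adenocarcinoma 40, 1435 CPM in L1363P carcinosarcoma 6, 1433 CPM in KP carcinosarcoma 130.10A and 580.0 CPM in KP adenocarcinoma 131.03A, and to at most 240 CPM elsewhere. Counts of called members that changed without these tumours are given beside the results.

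As background, entry into mitosis is driven by Cdk1 with cyclins B and A, and the Aurora and Polo-like kinases assemble the spindle and time division. Kinetochores built on centromeric CENP-A chromatin attach chromosomes to microtubules, and the spindle checkpoint holds back Cdc20 and the anaphase promoting complex until all are attached. Most of these genes are transcribed in G2 and M under the MuvB complex with B-Myb and FOXM1, so their RNA in a tissue is widely read as a mark of dividing cells. In RNA of whole tumours, fewer dividing cells and less RNA of these genes per cell cannot be told apart.

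Levels are CPM, read counts relative to library size after TMM scaling (a trimmed mean of log ratios between libraries) over the 73 libraries, and are divided by exon length where genes are compared with each other. Over all tumours the highest median levels per kilobase were those of Top2a, the topoisomerase that untangles sister chromatids, with 57.6 CPM per kb, and Mki67, which coats mitotic chromosomes and encodes the Ki-67 antigen, with 51.1 CPM per kb. Cdc20, the activator of the anaphase promoting complex, had 44.7 CPM per kb and Ccnb2, cyclin B2, had 38.4 CPM per kb. The outer kinetochore genes lay at the low end: Ndc80 had 5.23 CPM per kb, Nuf2 had 6.32 CPM per kb and Spc25 had 8.02 CPM per kb. Ndc80, Nuf2, Spc25 and Spc24, the last with 8.45 CPM per kb, encode the subunits of the NDC80 complex, which binds microtubules. Exon length takes all annotated exons of a gene together, 6.49 kb for Ndc80 and 1.53 kb for Ccnb2, so this order also depends on the annotation.

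The promoters of the members shared motifs that the choice of genes did not use. Mitotic promoters are known for the cell cycle homology element, TTTGAA or TTTAAA, and for the CCAAT box bound by NF-Y. RefSeq promoter windows of GRCm38.p6, which run from 250 bases before to 50 bases after the start, were found for 29 members, and both strands were searched. TTTGAA or TTTAAA stood in 25 of 29 member windows (86.2%), against 27.8% of the windows of 27025 genes. TTTGAA alone stood in 75.9% of the member windows, against 18.1% of all. CCAAT stood in 75.9% of the member windows, against 37.9% of all, and both kinds of motif stood in 72.4%, against 10.9%. Other mitotic and centromere genes held TTTGAA or TTTAAA in 47 of 83 windows (56.6%), replication genes in 6 of 22 (27.3%) and anaphase promoting complex genes in 2 of 13 (15.4%). A match is a description of the letters in this window and no evidence of binding.

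Shown here are the 5 promoters with the element among the members whose levels differed most between tumour groups of run 5625. Each holds the 120 bases before the RefSeq start and the 30 bases from the start on, 5′ to 3′ on the strand of the gene, with matches of the element and of the CCAAT box on either strand in capitals. Hjurp lies at chr1:88277550-88277699 on the minus strand, Cenpf at chr1:189688057-189688206 on the minus strand, Cdca8 at chr4:124936888-124937037 on the minus strand, Kif2c at chr4:117178743-117178892 on the minus strand and Espl1 at chr15:102296173-102296322 on the plus strand (build GRCm38.p6). The GENCODE gene model begins upstream of the RefSeq start by 2394 bases for Cdca8, 3867 for Kif2c, 54 for Hjurp and 27 for Espl1, and at the same base for Cenpf, and positions given here count from the RefSeq start.
Hjurp: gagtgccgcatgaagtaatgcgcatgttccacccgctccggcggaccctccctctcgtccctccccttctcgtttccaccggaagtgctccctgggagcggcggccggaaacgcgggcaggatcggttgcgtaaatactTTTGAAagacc
Cenpf: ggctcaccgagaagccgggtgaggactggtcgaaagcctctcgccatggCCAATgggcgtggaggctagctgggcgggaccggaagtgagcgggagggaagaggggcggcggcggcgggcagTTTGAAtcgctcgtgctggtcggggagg
Cdca8: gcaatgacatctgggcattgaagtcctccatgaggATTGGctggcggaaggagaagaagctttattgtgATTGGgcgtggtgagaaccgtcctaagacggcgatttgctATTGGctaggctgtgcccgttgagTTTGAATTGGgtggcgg
Kif2c: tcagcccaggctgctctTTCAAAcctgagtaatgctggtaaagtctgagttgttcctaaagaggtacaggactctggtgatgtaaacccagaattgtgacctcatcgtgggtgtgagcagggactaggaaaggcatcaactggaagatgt
Espl1: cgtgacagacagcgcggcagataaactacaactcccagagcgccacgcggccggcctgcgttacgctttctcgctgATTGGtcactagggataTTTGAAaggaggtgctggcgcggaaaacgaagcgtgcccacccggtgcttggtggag
In Hjurp, Cenpf and Cdca8 TTTGAA lay just past the start, at bases 20, 3 and 14. In Espl1 TTTGAA lay 27 bases before the start, and the CCAAT box lay upstream of it on the other strand. In Cdca8 a CCAAT box on the reverse strand overlapped the end of TTTGAA by 1 base, and 3 more such boxes lay upstream. Kif2c held the element on the reverse strand, 103 bases before the start, with no CCAAT in the stretch shown.

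**Figure D1:**
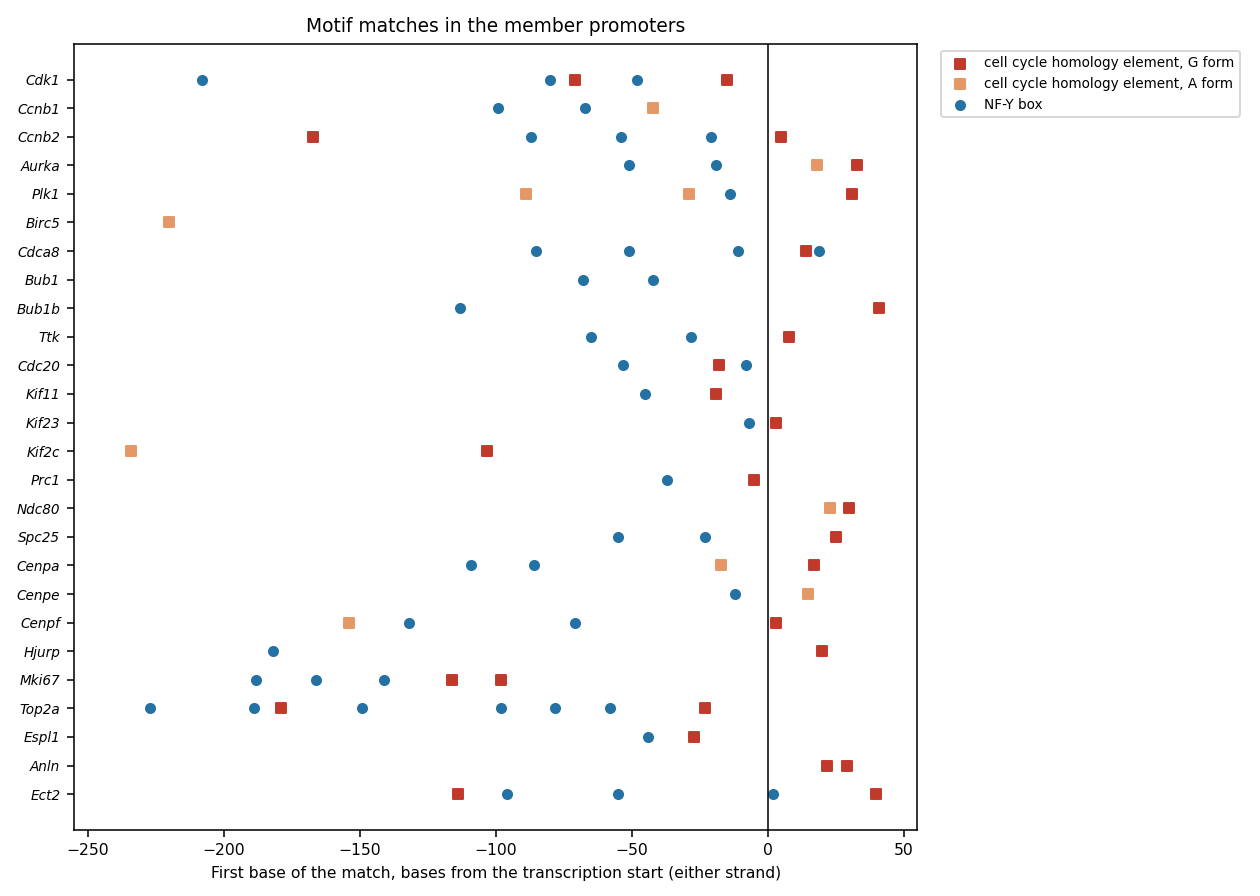
Positions of motif matches (x axis, bases from the RefSeq start) in the promoter windows of the 26 members with a match, of 29 searched (y axis). Squares are the 2 forms of the cell cycle homology element and circles the CCAAT box (NF-Y box); 22 members hold the element within 50 bases of the start.

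Across the 73 tumours the members rose and fell largely together. To summarise a tumour, each member was centred on its mean log2 CPM over all tumours and the median over the 35 members was taken. L1363P sarcomatoid tumours had medians of -0.60, -0.45 and 0.29 (lowest, median and highest tumour), L1363P carcinosarcomas -1.30, -0.04 and 0.07, and the 3 L1363P adenocarcinomas 0.13, 0.36 and 0.59. KB1PM-titled tumours had -0.33, -0.07 and 0.33, KB1P-titled tumours -0.36, 0.13 and 0.63, and KB2P tumours -0.45, 0.30 and 0.79. KP carcinosarcomas had -0.26, 0.16 and 0.17, and KP adenocarcinomas -0.999, -0.63 and 0.32. All 3 L1363P adenocarcinomas, 19 of 23 KB2P tumours and 8 of 11 KB1P-titled tumours lay above 0, against 1 of 9 sarcomatoid tumours and 1 of 5 KP adenocarcinomas. In the remaining groups 3 of 10 KB1PM-titled tumours, 4 of 9 L1363P carcinosarcomas and 2 of 3 KP carcinosarcomas lay above 0.

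**Figure D2:**
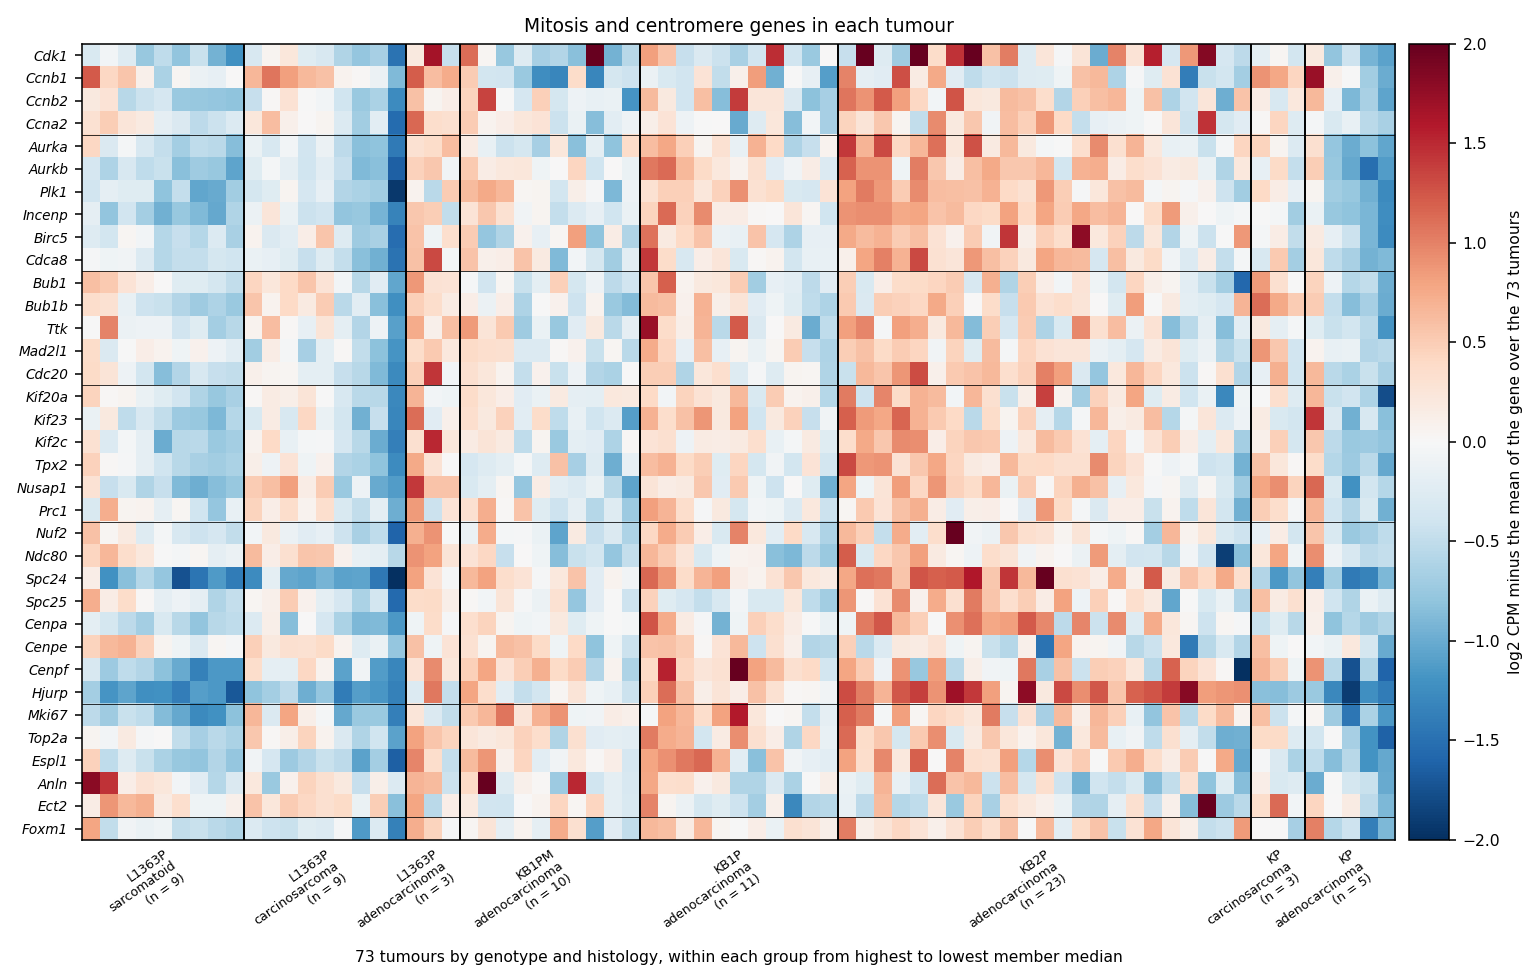
Log2 CPM of the 35 members (rows, by role) in 73 tumours (columns, by group), minus the mean of the gene over all tumours, with tumours in each group from highest to lowest member median and colours capped at -2 and 2. Sarcomatoid tumours and KP adenocarcinomas are mostly below the mean, and KB2P tumours and L1363P adenocarcinomas mostly above it.

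A few tumours stood apart for most members at once. L1363P carcinosarcoma 18 was the lowest tumour of its group for 33 of 35 members and the lowest of all 73 for 21 of them. KP adenocarcinoma 131.03A was the highest of its 5-tumour group for 31 of 35 members. Sarcomatoid tumour 9.1 was the highest of its group for 21 members. Of the 3 L1363P adenocarcinomas, tumour 52 was highest for 22 members and tumour 26.2 for 11, and tumour 7.2 was lowest for 23. Counts of called members without these tumours are given below.

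After removal of group means, 589 of the 595 pairs of members correlated positively across the 73 tumours, with a median r of 0.40. These correlations share libraries and their scaling and are given as a description. The closest pair was Cdc20 with Kif2c, a kinesin that takes microtubules apart, at r = 0.82, followed by Bub1b with Nusap1 at 0.77 and Cdca8 with Cdc20 at 0.76. Members of these pairs are neighbours in the genome: Kif2c, Cdc20 and Cdca8 lie within one stretch of chromosome 4, with 7.74 Mb between the outer genes, and Bub1b and Nusap1 lie 0.977 Mb apart on chromosome 2. The 9 pairs of members no more than 10 Mb apart had r between 0.52 and 0.82 with a median of 0.71, the 32 pairs further apart on a chromosome 0.49, and the 554 pairs on different chromosomes 0.40. In KB2P tumours alone the medians were 0.69, 0.27 and 0.23 in that order, in KB1P and KB1PM tumours 0.67, 0.41 and 0.34, and in run 5625 they were 0.89, 0.74 and 0.66. The nearest pair of all, Spc24 with Anln at 0.572 Mb on chromosome 9, had the lowest r of the 9 over all tumours, 0.52, and 0.38 in run 5625, where it ranked 544 of 595 pairs. The distance limit was set after the closest pairs were seen, and several of the 9 pairs share a gene. DNA copy number was not analysed here, and its part in these values was not tested.

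Cdk1, the kinase that starts mitosis, followed the others least, with a mean r of 0.20 with the other members. Its level ranged 20.0-fold, between 62.3 CPM in L1363P carcinosarcoma 18 and 1246 CPM in KB2P tumour 8. KB2P tumours 8 and 5 had 1246 and 1185 CPM, while the median KB2P tumour had 210.8 CPM. Single tumours also carried isolated peaks of other members. Anln, an actin-binding protein of the cleavage furrow, reached 1464 CPM in KB1PM tumour 3, against a median of 167 CPM in its group. Ect2, which activates RhoA at the furrow, reached 402 CPM in KB2P tumour 46, where Ccna2, cyclin A2, was also highest with 309 CPM, and both genes lie on chromosome 3. Nuf2, a subunit of the NDC80 complex, reached 256 CPM in KB2P tumour 21, against 83.1 CPM in the next highest of the 73 tumours. These peaks were picked after the values were seen.

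**Figure D3:**
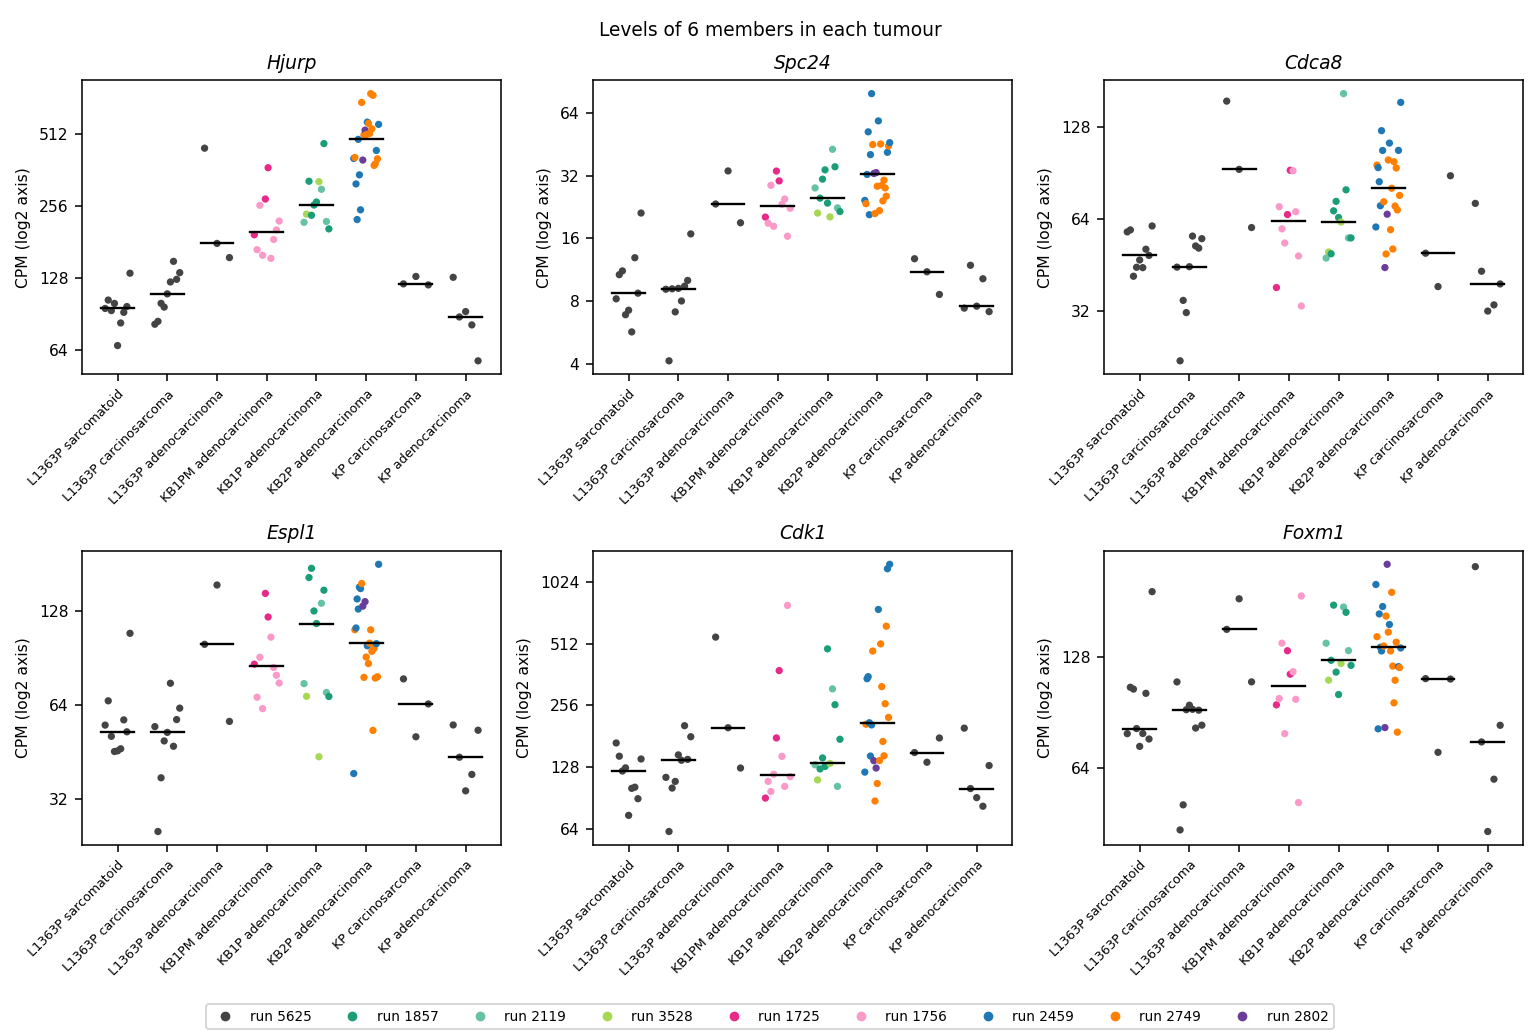
CPM (log2 axis) of Hjurp, Spc24, Cdca8, Espl1, Cdk1 and Foxm1 in each of the 73 tumours by group, coloured by run; bars are group medians. For Hjurp, all 9 sarcomatoid tumours and all 9 L1363P carcinosarcomas lie below all 3 L1363P adenocarcinomas, and all KB1PM, KB1P and KB2P tumours lie above all KP adenocarcinomas.

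In the L1363P genotype, part of the members had lower levels in sarcomatoid tumours than in adenocarcinomas. Of the 35 members, 14 fell in the 9 sarcomatoid tumours against the 3 adenocarcinomas and none rose (edgeR quasi-likelihood test, adjusted p under 0.05), while 30.6% of all 16147 genes were called, 12.1% higher and 18.5% lower. The median log2 fold change of the members was -0.65, against -0.09 over all genes, and 33 of 35 were negative. The called members were Cdk1, the kinases Aurka and Aurkb, the passenger proteins Incenp and Cdca8, Cdc20, Kif2c, Nusap1, Spc24, Cenpa, Cenpf, Hjurp, Top2a and Espl1. By role these were 4 of 6 kinases and passenger proteins, 4 of 8 kinetochore and centromere genes, 2 of 6 measured motors and microtubule genes, 2 of 5 genes of chromosome structure and cytokinesis, 1 of 5 checkpoint genes and 1 of 4 cyclins with Cdk1.

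The lowest p belonged to Hjurp, the chaperone that places CENP-A at centromeres. Hjurp ranged over 66.5, 95.2 and 134 CPM in sarcomatoid tumours (lowest, median and highest), against 156, 178 and 447 CPM in L1363P adenocarcinomas 7.2, 52 and 26.2. The groups did not overlap, and tumour 26.2 stood far above the other adenocarcinomas. Hjurp averaged 95.9 ± 17.9 CPM in sarcomatoid tumours and 260.4 ± 162 CPM in adenocarcinomas (SD, n = 9 and 3), a log2 fold change of -1.45 ± 0.23 (SE, edgeR adjusted p = 0.00019).

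Nusap1, which bundles spindle microtubules, ranged over 38.2, 49.6 and 92.5 CPM in sarcomatoid tumours, against 112, 112 and 200.3 CPM in the adenocarcinomas. The groups did not overlap, and the log2 fold change was -1.42 ± 0.37 (edgeR adjusted p = 0.00651). Cenpf, a large kinetochore protein, averaged 84.9 ± 20.3 CPM in sarcomatoid tumours and 213 ± 62.8 CPM in adenocarcinomas, again without overlap, and fell by 1.33 on the log2 scale (SE 0.38, edgeR adjusted p = 0.0107). Spc24 averaged 10.3 ± 4.68 CPM in sarcomatoid tumours and 25.4 ± 7.55 CPM in adenocarcinomas, with a log2 fold change of -1.30 ± 0.31 (edgeR adjusted p = 0.00363). Sarcomatoid tumour 9.1, with 21.2 CPM, was the only one inside the range of the adenocarcinomas for Spc24.

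Cdk1 averaged 119 ± 29.6 CPM in sarcomatoid tumours and 292 ± 227 CPM in adenocarcinomas, with a log2 fold change of -1.30 ± 0.32 (edgeR adjusted p = 0.00377). Its adenocarcinoma mean rests on tumour 26.2 with 551 CPM, while tumours 7.2 and 52 had 127 and 199 CPM and 4 of 9 sarcomatoid tumours lay above tumour 7.2. Aurkb, the kinase of the passenger complex, averaged 44.2 ± 7.35 CPM in sarcomatoid tumours and 84.7 ± 18.2 CPM in adenocarcinomas without overlap (log2 fold change -0.94 ± 0.29, edgeR adjusted p = 0.0177). Its partners Cdca8 and Incenp had log2 fold changes of -1.03 ± 0.27 and -0.93 ± 0.26 (edgeR adjusted p = 0.00585 and 0.00843). Kif2c had a log2 fold change of -1.18 ± 0.31, Cdc20 -0.99 ± 0.31, Espl1, the separase that cuts cohesin, -0.83 ± 0.27, and Top2a -0.82 ± 0.28.

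Several familiar proliferation genes did not pass. Mki67 averaged 288 ± 58.9 CPM in sarcomatoid tumours and 453 ± 124 CPM in adenocarcinomas (log2 fold change -0.65 ± 0.35, edgeR adjusted p = 0.149). Foxm1 averaged 99.7 ± 37.2 CPM in sarcomatoid tumours and 149 ± 37.4 CPM in adenocarcinomas (log2 fold change -0.58 ± 0.34, edgeR adjusted p = 0.196). Plk1, the Polo-like kinase, had a log2 fold change of -0.60 ± 0.28 and Ccnb1, cyclin B1, of -0.63 ± 0.40. For Foxm1 and Ccnb1 the range was stretched by sarcomatoid tumour 9.1, which lay above all 3 adenocarcinomas while the other 8 lay below them. Kif11 averaged 10.2 ± 0.39 in sarcomatoid tumours and 11.6 ± 0.26 in adenocarcinomas on the deposited log2 scale, a difference of -1.37 ± 0.37 (limma adjusted p = 0.00719).

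The wider gene lists are given beside the 18.5% of all genes that were called lower, and no test compared them with each other. Of 37 other centromere and kinetochore genes 9 fell and none rose, among them Cenpm at -1.79, Oip5 at -1.12 and Nsl1 at -1.06 (log2 fold changes). Of 58 other mitotic genes 28 fell and none rose, led by Sapcd2 at -2.41, the condensin subunit Ncapd2 at -1.52 and the Cdk1-inhibiting kinase Pkmyt1 at -1.33. Of 29 replication genes 13 fell and none rose, among them Pole2 at -1.19, Mcm7 at -1.12 and Uhrf1 at -1.02. Of 14 subunits of the anaphase promoting complex 1 rose, Anapc10 at 0.81, and none fell. Of 18 regulators 4 fell, among them E2f2 at -1.72, Tfdp2 at -1.12 and Mybl2, which encodes B-Myb, at -0.98, and 1 rose. Nusap1 overlaps Oip5 on the opposite strand, Cdc20 overlaps Elovl1, Ccna2 overlaps Exosc9 and Kif20a overlaps Cdc23 in the same way, and since the strand setting of the counting is not given, the reads of each pair may not be fully separate.

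Markers of other cells moved in the same comparison. Of 7 macrophage markers 7 rose, with summed levels of 3647 to 7059 CPM in sarcomatoid tumours against 618 to 1112 CPM in the adenocarcinomas. Of 9 fibroblast markers 6 rose, with sums of 13154 to 42174 CPM against 3431 to 5375 CPM, and of 12 epithelial markers 11 fell, with sums of 87.4 to 544 CPM against 2531 to 8594 CPM. Of 9 mesenchymal markers 7 rose, of 7 endothelial markers 4 rose and of 5 neutrophil markers 2 rose, while 7 of 7 basal epithelial and 2 of 5 adipocyte markers fell. No marker of these lists was at 0 in every tumour of a group. Their part in the lower mitotic levels was not tested.

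The count depended on which adenocarcinomas were used: 3 members fell without tumour 26.2, 7 without tumour 52 and 13 without tumour 7.2. Without sarcomatoid tumour 9.1, 16 fell. With library totals in place of TMM factors, 26 members fell and the median over all genes moved to -0.33.

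**Figure D4:**
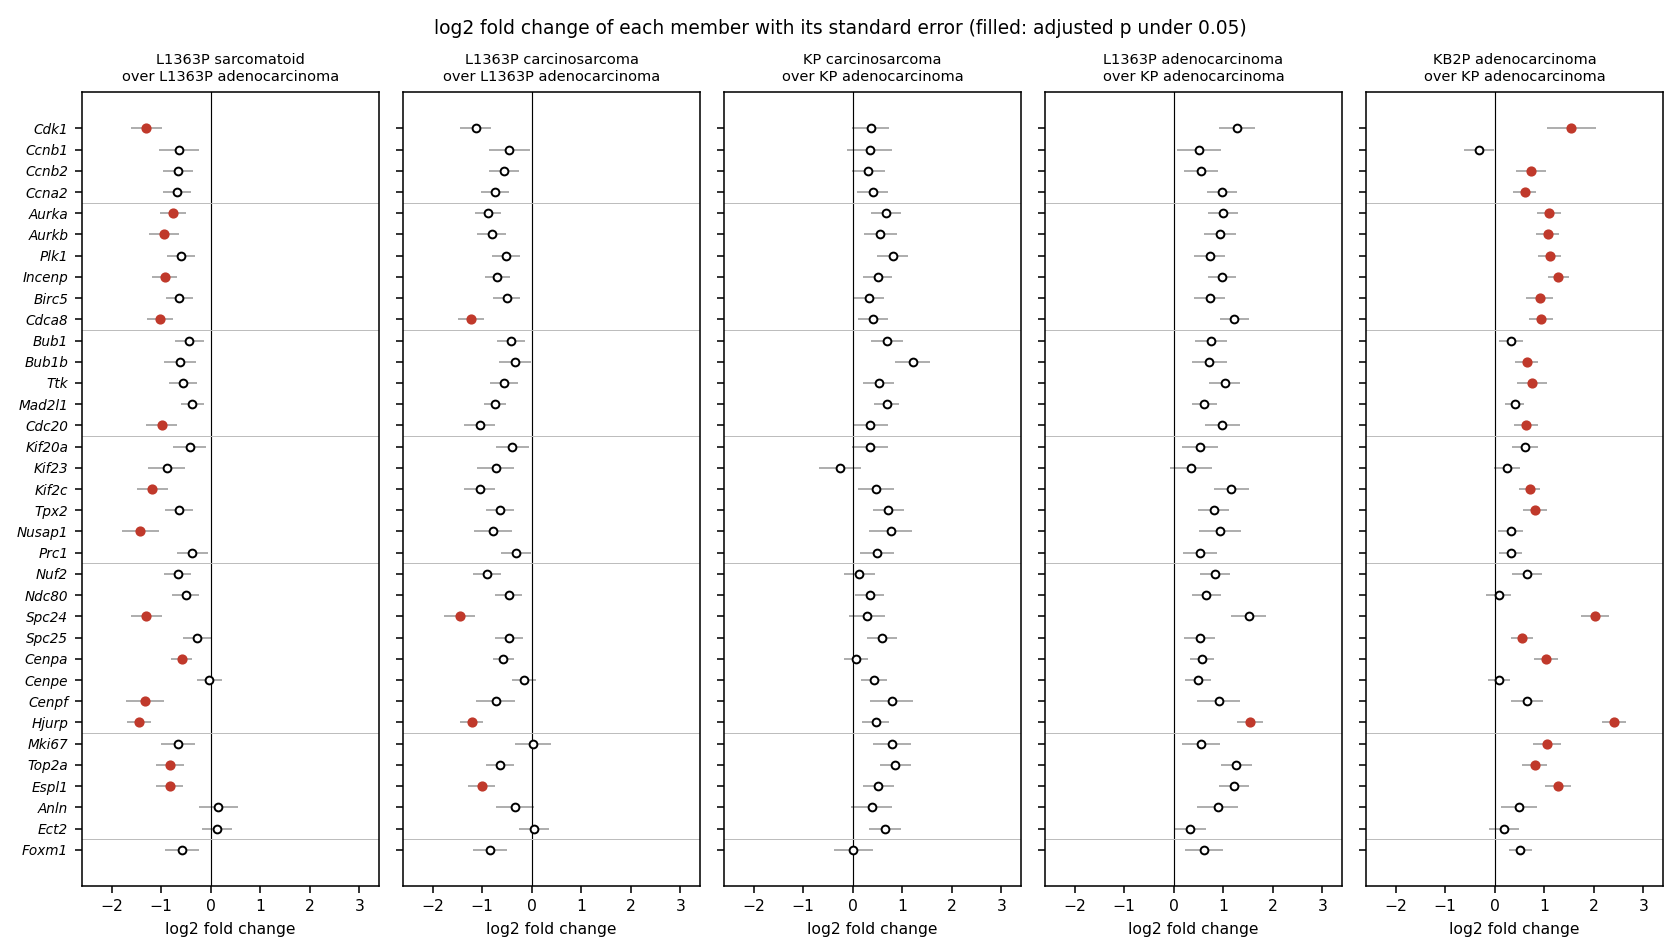
Log2 fold changes (x axis) of the 35 members (rows) with standard errors in 5 comparisons, filled where the adjusted p was under 0.05. Most members lie left of 0 in L1363P sarcomatoid tumours and carcinosarcomas over L1363P adenocarcinomas, and right of 0 in KP carcinosarcomas, L1363P adenocarcinomas and KB2P adenocarcinomas over KP adenocarcinomas; no member is filled for KP carcinosarcomas.

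L1363P carcinosarcomas, which mix epithelial and spindle-shaped parts, also had lower levels than the same 3 adenocarcinomas, in fewer members. Of 35 members 4 fell and none rose, while 2.70% of all genes were called, 0.545% higher and 2.16% lower. The median log2 fold change was -0.65 against 0.01 over all genes. Hjurp ranged over 81.7, 110 and 150.0 CPM in the 9 carcinosarcomas, against 156 to 447 CPM in the adenocarcinomas, and fell by 1.21 on the log2 scale (SE 0.24, edgeR adjusted p = 0.00654). Spc24 averaged 9.24 ± 3.36 CPM in carcinosarcomas and 25.4 ± 7.55 CPM in adenocarcinomas (log2 fold change -1.45 ± 0.31, edgeR adjusted p = 0.0121). Cdca8 averaged 43.7 ± 11.8 CPM in carcinosarcomas and 103 ± 48.4 CPM in adenocarcinomas (log2 fold change -1.23 ± 0.26, edgeR adjusted p = 0.0121). For these 3 genes every carcinosarcoma lay below every adenocarcinoma. Espl1 overlapped and fell by 1.01 on the log2 scale (SE 0.27, edgeR adjusted p = 0.039).

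Mki67 stood at 458 ± 236 CPM in carcinosarcomas and 453 ± 124 CPM in adenocarcinomas, a log2 fold change of 0.03 ± 0.36 (edgeR adjusted p = 0.975). Foxm1 averaged 82.5 ± 21.5 CPM in carcinosarcomas and 149 ± 37.4 CPM in adenocarcinomas (log2 fold change -0.84 ± 0.34, edgeR adjusted p = 0.164). The groups barely parted, with 109.72 CPM in the highest carcinosarcoma and 109.76 CPM in the lowest adenocarcinoma. Plk1 and Ccnb1 had log2 fold changes of -0.52 ± 0.28 and -0.45 ± 0.41. Kif11 averaged 10.7 ± 0.72 in carcinosarcomas and 11.6 ± 0.26 in adenocarcinomas on the deposited log2 scale (limma adjusted p = 0.227). Of the wider lists 2 of 37 centromere genes, 4 of 58 mitotic genes, 5 of 29 replication genes and 1 of 18 regulators fell, with Pkmyt1 at -1.48, Cenpm at -1.67, E2f2 at -1.48 and Rrm2 at -1.32, and none rose. Of the marker lists, 4 of 7 basal epithelial, 1 of 5 adipocyte and 1 of 9 T and NK cell markers fell, 1 of 9 mesenchymal markers rose, and no macrophage, fibroblast or epithelial marker passed. By sign, 7 of 7 macrophage markers were positive (median log2 fold change 1.45, 6 at an unadjusted p under 0.05), 9 of 9 fibroblast markers were positive (median 0.95, 4 at that p) and 12 of 12 epithelial markers were negative (median -0.79, 0 at that p). Macrophage markers summed to 972 to 7672 CPM in carcinosarcomas, against 618 to 1112 CPM in adenocarcinomas, and their part in the mitotic levels was not tested. Without adenocarcinoma 26.2 no member passed, without carcinosarcoma 18 the call on Espl1 was lost and 3 members fell, without carcinosarcoma 6, the tumour with muscle transcripts and few epithelial ones, 13 members fell, and with library totals 10 fell.

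No member passed between sarcomatoid tumours and L1363P carcinosarcomas (edgeR), although 21.5% of all genes were called, 7.45% higher and 14% lower. At an unadjusted p under 0.05 there were 4 members, DESeq2 called 1 and limma none. The median log2 fold change was -0.04, the same as over all genes. Mki67 came closest of the 4 genes named by rule, with 288 ± 58.9 CPM in sarcomatoid tumours and 458 ± 236 CPM in carcinosarcomas (log2 fold change -0.68 ± 0.25, edgeR adjusted p = 0.0553). Foxm1, Plk1 and Ccnb1 had log2 fold changes of 0.26 ± 0.25, -0.08 ± 0.20 and -0.18 ± 0.30. Without carcinosarcomas 17 and 4, which were 5 and 2% epithelial, 3 members were lower in sarcomatoid tumours, and without carcinosarcoma 18 Mki67 alone was. Of the wider lists, 3 of 37 centromere genes and 3 of 18 regulators fell and none rose. Of 58 mitotic genes 2 fell and 1 rose, and of 14 anaphase promoting complex genes 1 rose. None of 29 replication genes passed. In the same comparison 11 of 12 epithelial and 5 of 7 basal epithelial markers fell. Of other markers 5 of 9 mesenchymal, 3 of 9 fibroblast, 3 of 7 macrophage and 1 of 7 endothelial rose.

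Among the 9 L1363P carcinosarcomas levels were tested against the labelled epithelial percentage, with a slope in log2 units for every 10 percentage points. Of 35 members 1 was called, Nusap1, while 8.13% of all genes were called, 2.95% with a positive and 5.18% with a negative slope. That count is near the share of all genes with a positive slope, so it is no result about the members as a set. Nusap1 had 37.6, 45.1 and 34.7 CPM in the tumours that were 2, 5 and 40% epithelial, and 70.4 to 133 CPM in the 6 tumours that were 75 to 98% epithelial. The 2 sets did not overlap. The slope of Nusap1 was 0.16 ± 0.05 on the log2 scale (edgeR adjusted p = 0.0445). Slopes of 33 of 35 members were positive, with a median of 0.06 against 0.01 over all genes. Mki67 had a slope of 0.13 ± 0.05 (edgeR adjusted p = 0.0711), Ccnb1 of 0.10 ± 0.06, Plk1 of 0.06 ± 0.04 and Foxm1 of -0.02 ± 0.05. The call on Nusap1 was lost without tumours 17 and 4, without tumour 54.2, without tumour 6 and without tumour 18. Tumour 21.1 did not follow the other epithelium-rich tumours: at 98% epithelial its median over the members was -0.64. With rising epithelial percentage 6 of 7 macrophage, 4 of 9 mesenchymal and 3 of 9 fibroblast markers fell, no epithelial marker passed, and their part in the slope of Nusap1 was not tested.

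**Figure D5:**
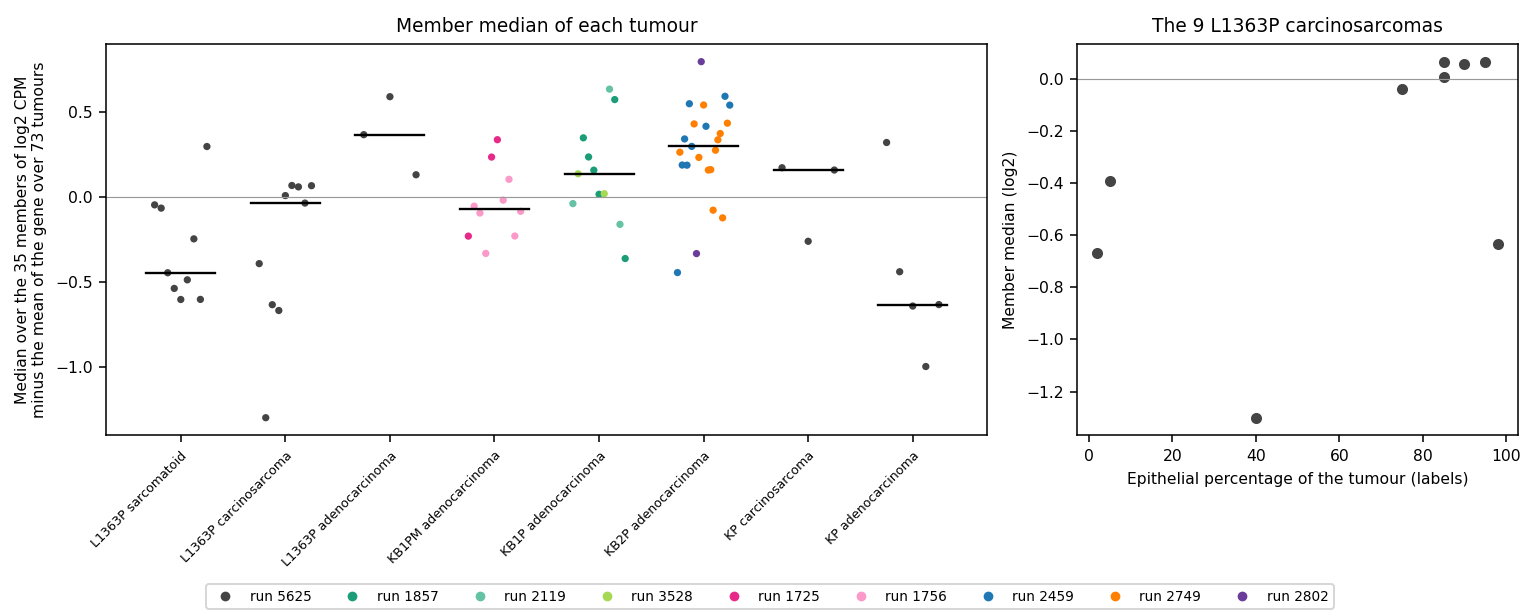
Left, the median over 35 members of centred log2 CPM in each of the 73 tumours by group, coloured by run, with bars at group medians. Right, the same median in the 9 L1363P carcinosarcomas against their labelled epithelial percentage; tumour 18 (40%) lies lowest at -1.30 and the 6 tumours of 75 to 98% lie between -0.64 and 0.07.

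KP carcinosarcomas, which were 80 to 90% epithelial by label, were set against KP adenocarcinomas as well. No member passed between KP carcinosarcomas and KP adenocarcinomas (edgeR, DESeq2 and limma; 8 members at an unadjusted p under 0.05 in edgeR), and 0% of all genes were called. The fold changes pointed up: 34 of 35 were positive, with a median of 0.46 against -0.11 over all genes. Plk1 had 55.7, 69.1 and 81.9 CPM in KP carcinosarcomas 26.02A, 5 and 130.10A, against 25.7, 31.8, 36.6, 38.4 and 64.8 CPM in the 5 KP adenocarcinomas. Only adenocarcinoma 131.03A lay within the range of the carcinosarcomas. Its log2 fold change was 0.81 ± 0.31 (edgeR adjusted p = 0.354). Mki67 averaged 537 ± 196 CPM in KP carcinosarcomas and 309.7 ± 128 CPM in KP adenocarcinomas (log2 fold change 0.80 ± 0.39), and Ccnb1 and Foxm1 had log2 fold changes of 0.34 ± 0.45 and 0.02 ± 0.39. No marker of other cells passed. By sign, 11 of 12 epithelial markers were positive (median log2 fold change 0.47), while 7 of 7 basal epithelial (median -2.44), 6 of 9 mesenchymal (-0.63), 8 of 9 fibroblast (-0.55) and 7 of 7 macrophage markers (-0.65) were negative. Macrophage markers summed to 1097 to 1792 CPM in KP carcinosarcomas, against 521 to 9276 CPM in KP adenocarcinomas.

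The difference between the 2 histological contrasts was tested as an interaction. No member passed (edgeR, the only tool run on it), with 22 at an unadjusted p under 0.05, and 0.0124% of all genes were called. All 35 differences were negative, with a median of -1.15 against 0.12 over all genes. Plk1 differed by -1.33 ± 0.42 (edgeR adjusted p = 0.199), Foxm1 by -0.86 ± 0.51, Ccnb1 by -0.79 ± 0.61 and Mki67 by -0.77 ± 0.52. Without KP adenocarcinoma 131.03A, 9 members passed, all negative, without it and tumour 40 4 passed, and none passed without L1363P adenocarcinoma 26.2. The 2 contrasts rest on 3 L1363P and 5 KP adenocarcinomas, and their carcinosarcomas differed in labelled epithelial percentage, 2 to 98% in L1363P and 80 to 90% in KP. Markers differed between the contrasts as well, though none passed: 9 of 9 mesenchymal (median 2.64, 7 at an unadjusted p under 0.05), 9 of 9 fibroblast (1.79, 4) and 7 of 7 macrophage markers (1.89, 4) were positive, and 11 of 12 epithelial markers were negative (-1.20, 0). Their part in the difference was not tested.

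Within run 5625 the L1363P adenocarcinomas had higher levels than the KP adenocarcinomas in all 35 members, with a median log2 fold change of 0.81 against -0.04 over all genes, and 1 member passed. Only 0.211% of all genes were called in this comparison, 0.142% higher and 0.0681% lower. Hjurp had 156, 178 and 447 CPM in L1363P adenocarcinomas 7.2, 52 and 26.2, against 57.4, 81.2, 87.7, 92.4 and 129 CPM in KP adenocarcinomas 90.01A, 89.01A, 39, 40 and 131.03A. All 3 L1363P tumours lay above all 5 KP tumours. The log2 fold change was 1.54 ± 0.27 (edgeR adjusted p = 0.019). At an unadjusted p under 0.05 there were 24 members, all higher.

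Spc24 had 19.03, 23.4 and 33.7 CPM in the L1363P adenocarcinomas and at most 11.9 CPM in the KP adenocarcinomas, again without overlap, but did not pass over all genes. Mki67 averaged 453 ± 124 CPM in L1363P and 309.7 ± 128 CPM in KP adenocarcinomas (log2 fold change 0.55 ± 0.39, edgeR adjusted p = 0.494). Foxm1 had 109.8, 152 and 184 CPM in L1363P adenocarcinomas, against 43.2, 59.9, 75.5, 83.8 and 225 CPM in KP adenocarcinomas. Tumour 131.03A was the one KP tumour above them, and the log2 fold change was 0.62 ± 0.38. Plk1 and Ccnb1 had log2 fold changes of 0.73 ± 0.31 and 0.51 ± 0.45. Without KP adenocarcinoma 131.03A 14 members rose, without it and tumour 40, which both held muscle transcripts, 5 rose, and without L1363P adenocarcinoma 26.2 none did. DESeq2 called 7 members higher.

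Of the wider lists, 1 of 58 mitotic genes rose, the kinesin Kif18b at 1.34, and 3 of 29 replication genes, the polymerase subunits Pole2 at 1.52 and Pold1 at 1.29 and the sliding clamp Pcna at 0.97 (log2 fold changes). None of 37 centromere genes, 14 anaphase promoting complex genes or 18 regulators passed. Of the markers, 1 of 5 adipocyte markers rose and no other marker passed. By sign, 9 of 9 fibroblast markers were negative (median log2 fold change -1.68, 6 at an unadjusted p under 0.05), as were 9 of 9 mesenchymal (-1.38, 5), 7 of 7 endothelial (-1.26, 4), 7 of 7 macrophage (-1.34, 2), 5 of 5 neutrophil (-3.24, 4) and 5 of 5 skeletal muscle markers (-7.89, 4), while 11 of 12 epithelial markers were positive (0.82, 0). Fibroblast markers summed to 3431 to 5375 CPM in L1363P adenocarcinomas, against 5153 to 25793 CPM in KP adenocarcinomas. Their part in the mitotic levels was not tested.

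No member passed between L1363P and KP carcinosarcomas (edgeR, DESeq2 and limma; 4 at an unadjusted p under 0.05 in edgeR), and 0% of all genes were called. Here 34 of 35 members were negative, with a median of -0.28 against 0.07 over all genes. Plk1 averaged 45.2 ± 13.7 CPM in L1363P and 68.9 ± 13.1 CPM in KP carcinosarcomas (log2 fold change -0.60 ± 0.28, edgeR adjusted p = 0.935). Mki67, Foxm1 and Ccnb1 had log2 fold changes of -0.22 ± 0.35, -0.24 ± 0.35 and -0.28 ± 0.41.

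KB2P adenocarcinomas had higher levels of most members than KP adenocarcinomas, and these groups were sequenced in different runs. Of 35 members 21 rose and none fell, while 35.3% of all 18492 genes were called, 18.1% higher and 17.2% lower. The median log2 fold change was 0.66, against 0.10 over all genes. All 6 kinases and passenger proteins rose, as did 3 of 4 cyclins with Cdk1, 3 of 5 checkpoint genes, 2 of 6 measured motors and microtubule genes, 4 of 8 kinetochore and centromere genes and 3 of 5 genes of chromosome structure and cytokinesis.

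Hjurp ranged over 225, 487 and 758 CPM in the 23 KB2P tumours, against 57.4 to 129 CPM in the 5 KP adenocarcinomas. The lowest KB2P tumour lay above the highest KP tumour. The log2 fold change was 2.41 ± 0.24 (edgeR adjusted p = 1.5e-12). Spc24 ranged over 20.8, 32.5 and 79.2 CPM in KB2P tumours, against 7.13 to 11.9 CPM in KP adenocarcinomas. It did not overlap either and rose by 2.02 ± 0.27 on the log2 scale (edgeR adjusted p = 2.34e-08). Incenp, the scaffold of the passenger complex, averaged 198 ± 42.5 CPM in KB2P and 81.3 ± 24.5 CPM in KP tumours, with all 23 above all 5 (log2 fold change 1.28 ± 0.21, edgeR adjusted p = 1.54e-06).

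Cdk1 averaged 352 ± 323 CPM in KB2P and 121 ± 47.1 CPM in KP tumours with overlap (log2 fold change 1.54 ± 0.49, edgeR adjusted p = 0.0114). Espl1 rose by 1.28 ± 0.26, Plk1 by 1.11 ± 0.23, Aurka, the kinase of spindle poles, by 1.10 ± 0.25, Mki67 by 1.06 ± 0.28 and Cenpa, the centromeric histone, by 1.04 ± 0.24 on the log2 scale. Smaller rises were those of Tpx2, the activator of Aurora A, at 0.82, Top2a at 0.81, the checkpoint kinase Ttk at 0.75, Ccnb2 at 0.74, Kif2c at 0.71, Bub1b at 0.64, Cdc20 at 0.63 and Ccna2 at 0.60. Foxm1 did not pass, with 139.6 ± 37.9 CPM in KB2P and 97.5 ± 73 CPM in KP tumours (log2 fold change 0.52 ± 0.23, edgeR adjusted p = 0.0763). Ccnb1 averaged 41.6 ± 19.6 CPM in KB2P and 51.9 ± 45.9 CPM in KP tumours (log2 fold change -0.32 ± 0.30), and KP tumour 131.03A alone lay above all KB2P tumours. Without it the log2 fold change of Ccnb1 was 0.39. Kif11 averaged 11.0 ± 0.50 in KB2P and 10.3 ± 0.73 in KP tumours on the deposited log2 scale (limma adjusted p = 0.033).

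KB1P adenocarcinomas, KB1PM included, gave a similar picture against the same 5 KP tumours, which both comparisons share. Of 35 members 11 rose and none fell, while 27.3% of all genes were called, 12.3% higher and 15% lower, and the median log2 fold change was 0.44 against 0.06 over all genes. Hjurp averaged 249.7 ± 75.9 CPM in 21 KB1P and 89.4 ± 25.7 CPM in KP tumours (log2 fold change 1.46 ± 0.22, edgeR adjusted p = 8.36e-07). Spc24 averaged 25.8 ± 6.71 CPM in KB1P and 8.85 ± 2.12 CPM in KP tumours (log2 fold change 1.53 ± 0.27, edgeR adjusted p = 9.39e-06). For both genes all 21 KB1P tumours lay above all 5 KP tumours.

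Mki67 averaged 689 ± 262 CPM in KB1P and 309.7 ± 128 CPM in KP tumours (log2 fold change 1.15 ± 0.29, edgeR adjusted p = 0.00175), and 14 of 21 KB1P tumours lay above all KP tumours. Espl1 rose by 1.15 ± 0.26, Anln by 0.97 ± 0.38 and Cenpf by 0.93 ± 0.34 on the log2 scale. Plk1 rose by 0.90 ± 0.23, Incenp by 0.90 ± 0.20 and Aurkb by 0.84 ± 0.23, and Top2a and Cenpa rose as well. Anln averaged 325 ± 416 CPM in KB1PM-titled, 181 ± 57.2 CPM in KB1P-titled and 123 ± 37.1 CPM in KP tumours. Its KB1PM-titled median was 167 CPM, and KB1PM tumour 3 alone held 1464 CPM. A fit without that tumour is not given here. No cyclin, checkpoint gene or motor in the count table passed. Foxm1 had a log2 fold change of 0.34 ± 0.23 and Ccnb1 of -0.63 ± 0.30 (edgeR adjusted p = 0.289 and 0.103). Kif11 averaged 11.0 ± 0.36 in KB1P and 10.3 ± 0.73 in KP tumours on the deposited log2 scale (limma adjusted p = 0.0281).

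Of the wider lists, the centromere, mitotic and replication genes had more calls up than down in both comparisons, and the regulators and the anaphase promoting complex had as many up as down. Of 37 other centromere and kinetochore genes 17 rose and 2 fell in KB2P and 8 rose and 1 fell in KB1P tumours, with Cenpm at 2.18 and 1.67 (log2 fold changes against KP). Spdl1 fell by 1.88 in KB2P and by 2.10 in KB1P, and 1 KP tumour lay above all tumours of either model for it. Of 58 other mitotic genes 34 rose in KB2P and 21 in KB1P and none fell, with Sapcd2 at 2.33 and 1.71 and Pkmyt1 at 2.07 and 1.81. Of 29 replication genes 14 and 9 rose and none fell, with Pold1 at 2.11 and 1.79 and the licensing factor Cdt1 at 1.30 and 1.21. Of 18 regulators 3 rose and 3 fell in KB2P and 2 rose and 2 fell in KB1P, with Mybl2 at 1.37 and 1.39, E2f1 at 1.34 and 0.94 and Tfdp1 at -1.26 and -1.43. Of 14 anaphase promoting complex genes 2 rose and 2 fell in KB2P and 1 rose and 1 fell in KB1P.

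Markers of other cells were lower in both models than in KP adenocarcinomas. All 7 macrophage and all 5 skeletal muscle markers fell in KB2P and in KB1P tumours, as did 6 and 7 of 9 fibroblast markers and 5 and 6 of 7 endothelial markers. Fibroblast markers summed to 1076 to 9943 CPM in KB2P and 1285 to 11899 CPM in KB1P-titled tumours, against 5153 to 25793 CPM in KP adenocarcinomas. Muscle markers summed to at most 67.8 CPM in KB2P tumours and reached 1786 CPM in a KP adenocarcinoma, and no marker of these lists was at 0 in a whole group. Their part in the higher mitotic levels was not tested, and genotype and run cannot be told apart here.

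These counts depended on which KP tumours were used, and KB1P and KB2P tumours were not left out in turn. Leaving out each KP adenocarcinoma in turn gave 14 to 27 called members for KB2P and 8 to 18 for KB1P, highest in both without tumour 131.03A. Without tumour 90.01A, the one with few epithelial transcripts, the counts were 15 for KB2P and 8 for KB1P. Without tumours 40 and 131.03A they were 22 and 11, of which 17 and 9 were called with all tumours too. For KB1P, 1 of the 9 called members given with values above lost its call when tumour 89.01A was left out, and likewise when tumour 40 was left out.

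KB1P and KB2P adenocarcinomas differed in 11 members, all lower in KB1P, while 13.2% of all genes were called, 5.38% higher and 7.81% lower. The median log2 fold change was -0.29, against -0.04 over all genes. Hjurp averaged 249.7 ± 75.9 CPM in KB1P and 476 ± 141 CPM in KB2P tumours (log2 fold change -0.95 ± 0.12, edgeR adjusted p = 2.59e-08), and 10 of 21 KB1P tumours lay below all KB2P tumours. By run, Hjurp averaged 193 to 293 CPM in the 5 KB1P and KB1PM runs and 400.2 to 535 CPM in the 3 KB2P runs. No run held both genotypes, so genotype and run cannot be told apart in this comparison. Cdk1 averaged 201 ± 169 CPM in KB1P and 352 ± 323 CPM in KB2P tumours (log2 fold change -0.81 ± 0.27, edgeR adjusted p = 0.0365). Its KB2P mean was 507 ± 443 CPM in run 2459, 272 ± 174 CPM in run 2749 and 132 ± 7.69 CPM in run 2802.

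Aurka fell by 0.51 in KB1P against KB2P, Spc24 by 0.49, Spc25 by 0.45, Cdc20 by 0.44, Nusap1 by 0.43, Tpx2 by 0.40, Incenp by 0.38 and Kif2c by 0.36 on the log2 scale, and Cenpa passed as well. Mki67 averaged 689 ± 262 CPM in KB1P and 644 ± 231 CPM in KB2P tumours (log2 fold change 0.10 ± 0.16, edgeR adjusted p = 0.742). Plk1, Foxm1 and Ccnb1 had log2 fold changes of -0.21 ± 0.13, -0.18 ± 0.14 and -0.31 ± 0.19. Kif11 averaged 11.0 ± 0.36 in KB1P and 11.0 ± 0.50 in KB2P tumours on the deposited log2 scale (limma adjusted p = 0.868). Of the wider lists, 13 of 58 mitotic genes fell and none rose, and 6 of 37 centromere genes fell and 1 rose. With KB2P tumours of run 2749 only, 3 members fell, and with KB1P-titled tumours only, 2 fell. Without KB2P 30 and KB1PM 8, the tumours with few epithelial transcripts, 10 fell and the call on Kif2c was lost. Of 7 B and plasma cell markers 5 fell in this comparison and their part was not tested.

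Set against KB1P adenocarcinomas, the L1363P adenocarcinomas were higher in 3 members and lower in none, while 5.00% of all genes were called, 2.65% higher and 2.35% lower. Ccnb1 had 61.2, 66.9 and 92.6 CPM in the 3 L1363P adenocarcinomas, against 33.8 ± 14.3 CPM in 21 KB1P tumours, of which 20 lay below all 3 (log2 fold change 1.14 ± 0.35, edgeR adjusted p = 0.0397). Nusap1 had 112 to 200.3 CPM in L1363P tumours, above all 21 KB1P tumours with 69.6 ± 19.6 CPM (log2 fold change 1.04 ± 0.28, edgeR adjusted p = 0.0133). Kif2c rose by 0.82 ± 0.24 on the log2 scale (edgeR adjusted p = 0.0272). Mki67 had a log2 fold change of -0.61 ± 0.35, Plk1 of -0.17 ± 0.27 and Foxm1 of 0.27 ± 0.28. Without L1363P adenocarcinoma 26.2 or 52, 1 member passed, and none did against KB1P-titled tumours alone. Without KB2P 30 and KB1PM 8, 2 passed and the call on Ccnb1 was lost.

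Against KB2P adenocarcinomas 1 member fell in the L1363P adenocarcinomas, Hjurp, and none rose, while 9.10% of all genes were called, 4.41% higher and 4.69% lower. Hjurp averaged 260.4 ± 162 CPM in L1363P and 476 ± 141 CPM in KB2P tumours (log2 fold change -0.87 ± 0.27, edgeR adjusted p = 0.0277), and 12 of 23 KB2P tumours lay above all 3 L1363P tumours. The call was lost without L1363P adenocarcinoma 7.2 and without 52, and against KB2P tumours of run 2459 alone, where 2 other members were higher in L1363P tumours. Ccnb1, Mki67, Plk1 and Foxm1 had log2 fold changes of 0.82 ± 0.36, -0.51 ± 0.34, -0.38 ± 0.28 and 0.09 ± 0.28. Kif11 averaged 11.6 ± 0.26 in L1363P adenocarcinomas, against 11.0 ± 0.36 in KB1P and 11.0 ± 0.50 in KB2P tumours on the deposited log2 scale (limma adjusted p = 0.359 and 0.204).

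Titles and runs within a genotype were compared as a yardstick. No member passed between KB1PM-titled and KB1P-titled tumours (edgeR, DESeq2 and limma; 3 at an unadjusted p under 0.05 in edgeR), with 0.887% of all genes called, 0.470% higher and 0.416% lower, and 29 of 35 members negative. No member passed between KB2P runs 2749 and 2459 (8 at an unadjusted p under 0.05 in edgeR; 7.32% of all genes called, 3.09% higher and 4.23% lower), between KB1P-titled runs 2119 and 1857 (0 at an unadjusted p under 0.05; 0.0104%) or between KB1PM-titled runs 1756 and 1725 (3 at an unadjusted p under 0.05; 0.348%, 0.0104% higher and 0.338% lower). The runs compared hold 3 to 12 tumours of a title each, so the yardstick is coarse for the smaller ones.

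Foxm1, the transcription factor of the set, was related to each of the 34 other members over the 23 KB2P tumours, the largest group of 1 genotype and histology. No Pearson or Spearman correlation passed adjustment over the 34 relations (permutation test with 100000 resamples, two-sided). The closest was Aurkb, at r = 0.57 (permutation p = 0.00454, adjusted p = 0.154) and rho = 0.42 (permutation p = 0.0452, adjusted p = 0.659). Of the 34 values of r, 24 were positive, with a median of 0.13 and the lowest for Cenpf at -0.37. Without tumours 46 and 26, the farthest from the median level of Foxm1, 18 were positive with a median of 0.02. In the 12 tumours of run 2749 23 were positive, and in the 9 of run 2459 9 were, with medians of 0.18 and -0.23.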

How the data were processed

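RNA sequencing (TRIzol RNA, TruSeq Stranded mRNA, HiSeq2500, per the labels) covered 73 mouse mammary tumours. Per the submitters' processing notes, cutadapt 2.10, STAR 2.7.3a, featureCounts 2.0.0, DESeq and build mm10 were used; the annotation and the strand setting are not given in the sources used here. The authors deposited raw counts per gene, and a table of log2 values that equal the log2 of counts divided by one factor per library, plus 1.

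Counts were tested with edgeR 4.0.16 in R 4.3.3 (quasi-likelihood F test, TMM factors, filterByExpr with a minimum count of 10, Benjamini-Hochberg adjustment over all genes, threshold 0.05). Comparisons among the 29 libraries of run 5625 shared one fit, those with KB1P or KB2P a fit of 73 libraries in 8 groups, and those between runs a fit of 13 group and run cells. KB1P- and KB1PM-titled groups were averaged with equal weight. Errors of fold changes are the absolute log2 fold change over the root of F. Kif11 was tested with limma 3.58.1 on the deposited log2 values. DESeq2 1.42.0, limma, library totals, no filter, left-out tumours and single runs were alternatives. Scripts were tested on simulated data. Depth ran between 7325180 and 31615237 counts per library.

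The members and gene lists were chosen with earlier results of these data known. Named in the text are up to 3 called members per role and comparison with the largest absolute log2 fold change, with Foxm1, Mki67, Plk1 and Ccnb1 throughout, and up to 3 called genes of each wider list. Other values, among them the fits without tumours that stood apart, those of single KB2P runs, the peaks in single tumours and the 10 Mb limit for neighbouring genes, were chosen after seeing the data. The correlations of Foxm1 were adjusted over 34 members, since Kif11 is not in the count table. Promoter windows came from RefSeq (GRCm38.p6), and exon lengths and overlaps from the GENCODE annotation.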

Additional observations from a re-analysis of the deposited data

Results flagged for a closer look

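In groups of 4 to 10 tumours the highest or lowest tumour was set against its nearest neighbour and the range of the group with Dixon's criterion on the log2 scale, for 140 combinations of member and group and for the member medians of 4 groups. Of these 12 passed, all of single members, and chance alone gives about 1 in 20. On linear CPM 29 of the 140 passed, 9 of them among the 12, and the others included Anln in KB1PM tumour 3 and Cdk1 in KB1PM tumour 8. KP adenocarcinoma 131.03A was the outlying tumour for 6 members. It had 84.7 CPM of Aurka against 39.8 CPM in the next highest KP adenocarcinoma, 129 against 60.1 CPM of Cdc20, 240.4 against 72.7 CPM of Kif23 and 88.6 against 42.7 CPM of Kif2c. It also had 65.6 against 32.1 CPM of Ndc80 and 85.7 against 53.3 CPM of Cenpa.

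L1363P carcinosarcoma 18 was outlying on the low side for 3 members, with 16.2 CPM of Plk1 against 38.4 CPM in the next lowest carcinosarcoma, 13.6 against 26.5 CPM of Nuf2 and 47.3 against 77.3 CPM of Ect2. Sarcomatoid tumour 9.1 was outlying on the high side for Espl1, with 108 against 66.1 CPM, and for Foxm1, with 193 against 106 CPM. Sarcomatoid tumour 10 was outlying for Ttk, with 68.4 against 34.1 CPM. The members are related to each other within a tumour, so these are not 12 separate observations.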

How the results depend on the processing

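Of the counts of called members under the alternatives, 144 stayed within 1.5 times the reported count (or at it) and 49 did not; of the log2 fold changes of named members, 887 kept direction and call, 174 lost the call, 12 gained one and 14 changed sign. The cause was not tested. With library totals in place of TMM factors 26 members were called in sarcomatoid against L1363P adenocarcinoma, 10 in L1363P carcinosarcoma against adenocarcinoma, 1 in sarcomatoid against carcinosarcoma, 5 in L1363P against KP adenocarcinoma and 1 in L1363P against KB1P adenocarcinoma; this scaling moved the median of all genes to -0.33, -0.15, -0.12, 0.07 and -0.14. With only the groups compared, 0 were called in L1363P carcinosarcoma against adenocarcinoma and in L1363P against KP and KB2P adenocarcinoma, and 2 in the slope on epithelial percentage. Without the filter 0 were called in that slope and in L1363P against KB2P, and 5 in KB1P against KB2P. DESeq2 called 10 in L1363P carcinosarcoma against adenocarcinoma, 1 in sarcomatoid against carcinosarcoma and 7 in L1363P against KP adenocarcinoma, and limma 5 in KB1P against KB2P. All 73 libraries in one fit gave 2 in L1363P against KP adenocarcinoma. Without KP adenocarcinomas 40 and 131.03A 5 were called there and 4 in the difference between histological contrasts. Without carcinosarcoma 6, 13 were called in L1363P carcinosarcoma against adenocarcinoma and 0 in the slope, which also held 0 without tumour 54.2 and without tumours 17 and 4; without 17 and 4, sarcomatoid against carcinosarcoma held 3. Without carcinosarcoma 18 it held 1 and the slope 0. With KB1P-titled tumours only, 0 were called in L1363P against KB1P and 2 in KB1P against KB2P; KB2P run 2459 alone gave 2 in L1363P against KB2P, and run 2749 alone gave 3 in KB1P against KB2P.

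Tumours were left out in turn only from the groups of 3 or 5 tumours. Leaving out 1 such tumour at a time gave 3 to 13 called members in sarcomatoid against L1363P adenocarcinoma, 0 to 8 in L1363P carcinosarcoma against adenocarcinoma, 0 to 14 in L1363P against KP adenocarcinoma, 0 to 9 in the difference between histological contrasts, 1 to 3 in L1363P against KB1P, 0 to 1 in L1363P against KB2P, 8 to 18 in KB1P against KP, 14 to 27 in KB2P against KP and 0 to 1 between KB1PM runs. Single tumours of larger groups were left out only where named above, and some of those counts lie outside these ranges. Changes of sign were those of Mki67 in L1363P carcinosarcoma against adenocarcinoma (-0.13 with library totals, -0.090 with limma, and -0.13 to 0.28 on leaving out 1 tumour), Foxm1 in the slope (0.13 without tumours 17 and 4), Plk1 in L1363P against KB1P (-0.45 to 0.063 on leaving out 1 tumour, above 0 without 26.2), Foxm1 in L1363P against KB2P (-0.000343 with library totals and -0.090 to 0.27 on leaving out 1 tumour, below 0 without 52), Ccnb1 in KB1P against KP (-0.84 to 0.072 on leaving out 1 tumour) and in KB2P against KP (-0.52 to 0.39, and 0.21 without 40 and 131.03A), both above 0 without 131.03A, Ccnb1 in KB1P against KB2P of run 2459 (0.054) and Foxm1 in KB1P against KB2P in the tumours that share a number (0.052 with the replicate block, 0.047 without it). None of these passed in the reported fits.

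No label says that a title number marks a shared origin, and title numbers were taken as pairing only if the deviations of every pair correlated over 0.1. For the 5 numbers shared by KB1P and KB2P these correlations were 0.056 to 0.35, with 4 over 0.1, and 4 of 5 tumours correlated best with their own number, a hint from the data that falls short of that rule. Of the 8 numbers shared by KB1PM and KB1P, 1 was over 0.1 and 0 tumours correlated best with their own number. The fit with a replicate block called 0 members in KB1P against KB2P, and 0 were called in the same tumours without the block. The small groups, of 3 and 5 tumours, limit the precision.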
